A study of Mus musculus with 8 samples.

Results

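Expression of 8 genes of neuronal transcription factors was followed through MYCN-driven mouse neuroblastomas: the 3 MYT1 family genes St18, Myt1 and Myt1l, the zinc finger homeobox genes Zfhx3 and Zfhx4, and the basic helix-loop-helix (bHLH) genes Nhlh1, Nhlh2 and Tcf24. They are 8 of the 18194 genes that the arrays measured with a probe set of a single gene, and 20 such probe sets belong to them. St18, Zfhx4 and Tcf24 were selected on their high SD over these same tumors, and the other 5 were added as relatives or as fellow neuronal bHLH factors. RNA from 8 untreated tumors of LSL-MYCN;Dbh-iCre mice was profiled on Affymetrix whole-genome mouse arrays, 1 array per tumor. Tumors 7 and 8 grew in the superior cervical ganglion, which belongs to the sympathetic chain of the neck, and tumors 1 to 6 from the adrenal. All carried a human MYCN cDNA in the ROSA26 locus, behind a CAG promoter and a transcriptional stop flanked by loxP sites, followed by a luciferase. Cre was driven by the Dbh promoter, which is active in noradrenergic neurons, so MYCN was switched on in that lineage. The labels give neither age nor strain, and they do not say whether each tumor came from its own mouse. P-values between sites therefore measure the spread between these tumors only. Normal adrenals were not analysed here.

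MYT1 family proteins bind DNA through zinc fingers of the C2HC type and act with corepressor complexes in developing neurons. Myt1l keeps genes of other lineages silent in neurons and is 1 of the factors used to turn fibroblasts into neurons. Zfhx3 and Zfhx4 encode very large proteins with many zinc fingers and several homeodomains, and Zfhx3 is also known for its role in the circadian clock of the hypothalamus and, in humans, as a tumor suppressor in prostate cancer. Nhlh1 and Nhlh2 are bHLH factors of newly formed neurons, which pair with widely expressed E proteins and bind E boxes, and Nhlh2 acts in the hypothalamus in the control of body weight. Tcf24 encodes a little studied bHLH factor.

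The NHLH genes are the members whose protein class has a well defined DNA element, the E box (CANNTG), so their own upstream sequences are shown. Each is the 250 bases before the gene start from RefSeq, build GRCm38.p6, written 5′ to 3′ on the strand of the gene, with E boxes in capitals. Nhlh1 lies on the minus strand at chr1:172057597-172057846 and Nhlh2 on the plus strand at chr3:102009895-102010144.
Nhlh1: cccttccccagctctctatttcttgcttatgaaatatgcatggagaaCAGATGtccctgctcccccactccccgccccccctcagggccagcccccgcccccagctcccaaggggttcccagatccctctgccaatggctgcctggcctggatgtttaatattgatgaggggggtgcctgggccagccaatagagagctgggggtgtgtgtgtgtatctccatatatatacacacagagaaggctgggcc
Nhlh2: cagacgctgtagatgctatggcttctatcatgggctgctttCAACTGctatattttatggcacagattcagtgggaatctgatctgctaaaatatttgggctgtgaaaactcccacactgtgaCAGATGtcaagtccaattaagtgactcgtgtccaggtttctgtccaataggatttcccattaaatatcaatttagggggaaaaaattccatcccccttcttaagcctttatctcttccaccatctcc
The Nhlh1 window held 1 E box and the Nhlh2 window 2. An E box was present in 66.2% of the 32851 upstream windows of the same length, with a median of 1 per window, so these letters are common. The pattern reads the same on both strands. The special case CAGCTG was in neither window and in 13.0% of all windows. Upstream windows were found for 5 of the 8 genes, 11 windows in all. A motif described for the MYT1 family, AAGTTT searched on both strands, was in 2 of the 3 Myt1 windows and in 12.8% of all windows. It was in no window of Myt1l, Zfhx3, Nhlh1 or Nhlh2. These matches describe the sequence and are not binding sites shown by these data.

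Levels are the log2 values that the authors deposited, and the brightest probe set on average stands for each gene. A level was called detected when it lay above the 95th percentile of 86 probe sets for olfactory, vomeronasal and taste receptors on the same array, which was 6.71 to 7.21. Levels of different genes come from different probes and are not compared. On this scale Myt1, Myt1l and Zfhx3 were detected in all 8 tumors, whereas St18, Zfhx4, Tcf24, Nhlh1 and Nhlh2 were detected in some of them. Tumor 7 had 7 of the 8 genes detected, and tumors 2 and 4 had 3. Since RNA of whole tumors was measured, fewer cells of a type and less RNA per cell cannot be told apart.

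**Figure D1:**
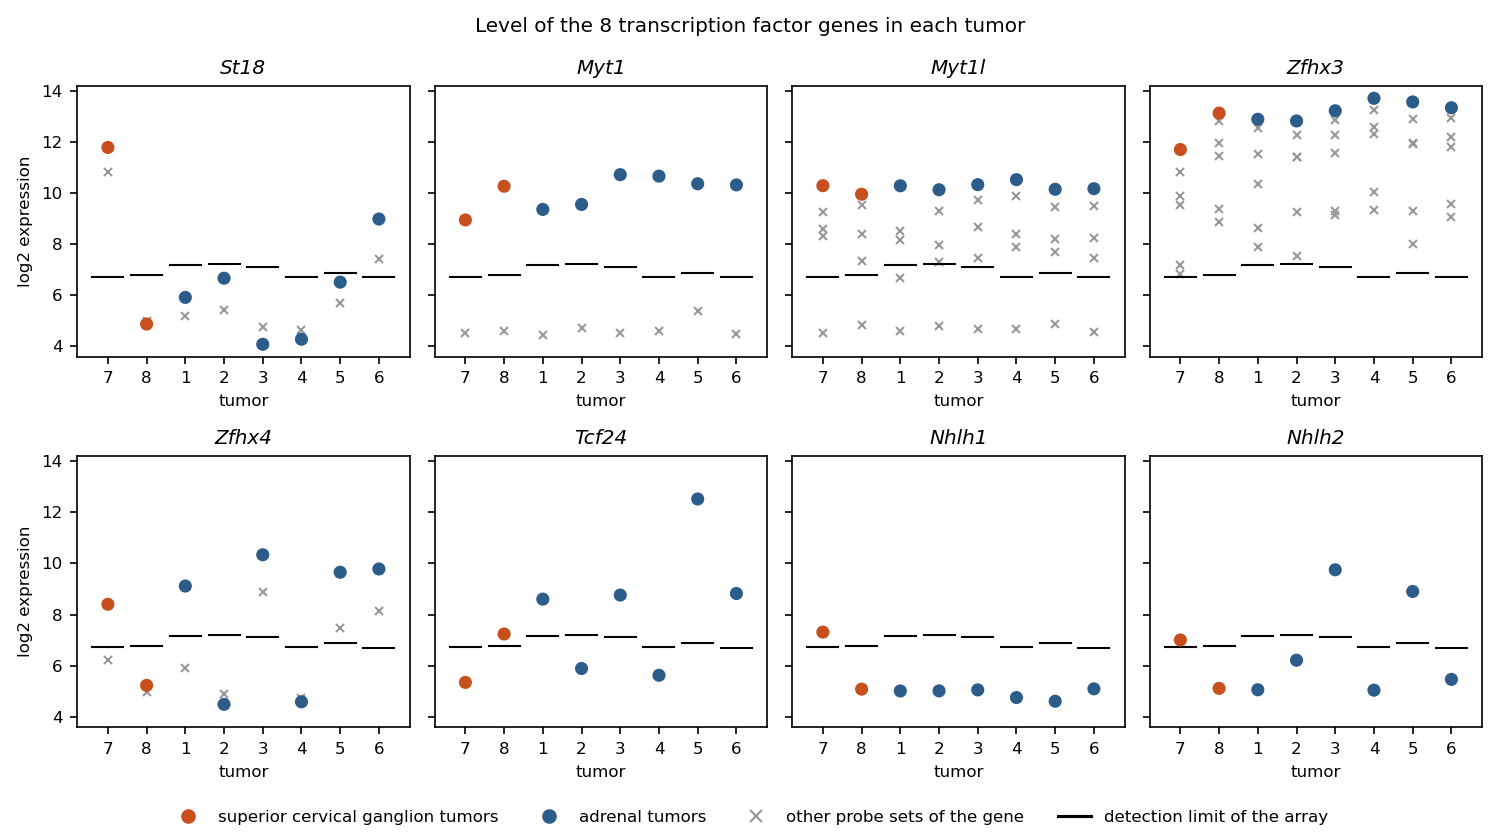
Log2 expression of the 8 genes (1 panel each) in ganglion tumors 7 and 8 and in adrenal tumors 1 to 6. Filled circles are the probe set that stands for the gene, grey crosses its other probe sets, and black bars the detection limit of each array. St18 stands highest in tumor 7 at 11.78, Tcf24 highest in tumor 5 at 12.53, and Nhlh1 is above the limit in tumor 7 alone.

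Tumor 7 stood apart in the markers of the lineage in which Cre was expressed. All 7 noradrenergic markers measured were lowest in it, and their mean level was 8.91 in tumor 7, against 13.10 in tumor 8 and 12.63 to 13.16 in the adrenal tumors. Of these markers, 6 were detected in tumor 7, and Gata3 was not, at 5.22. Pou4f1, a transcription factor of sensory neurons, was 9.92 in tumor 7, against 4.93 to 5.49 elsewhere. Tlx3, the other sensory neuron marker measured, was 6.66 in tumor 7, below the detection limit, and was detected in tumors 2, 3, 5, 6 and 8. Skeletal muscle markers lay 1.56 above their mean over all 8 tumors in tumor 7 and 0.78 above it in tumor 8, and 0.20 to 0.58 below it in the adrenal tumors. Tumor 6 carried all 5 hepatocyte markers, 6.31 above that mean, and all 4 adrenal cortex markers. For Gapdh, a measure of RNA quality, the 3′ probe set exceeded the 5′ one by 5.51 in tumor 1, against 0.47 to 1.57 elsewhere. The part of these differences in the results on the 8 genes was not tested, and values without tumor 7 are given where a difference or r depends on it.

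St18 encodes a MYT1 family factor that is known from pancreatic islets and from the developing forebrain. Its level was 11.78 in tumor 7 and 4.87 in tumor 8, against 5.91, 6.66, 4.07, 4.27, 6.51 and 8.98 in adrenal tumors 1 to 6. Tumor 7 lay above all adrenal tumors and tumor 8 inside their range, and St18 was detected in tumors 7 and 6 only. Its SD of 2.61 ranked 8th of the 16254 genes expressed above log2 5 in at least 2 tumors. The median SD of those genes was 0.26. Without tumor 7 the rank was 61. A second St18 probe set read 10.84 in tumor 7, 4.97 in tumor 8 and 4.65 to 7.40 in the adrenal tumors, with the highest adrenal value again in tumor 6. Over the 8 tumors the 2 probe sets had a Pearson r of 0.96, and of 0.95 without tumor 7. Tumor 6 is the one with the hepatocyte markers. Of the pancreatic islet markers measured, Ins2 was detected in all 8 tumors (7.44 to 7.63), and Gcg and Sst were detected in none. Ins2 lay near the detection limit and hardly varied, with an SD of 0.063. At the 99th percentile of the receptors it was detected in 7 tumors.

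Myt1, a zinc finger factor that promotes neuronal differentiation and counters Notch signalling, was 8.94 in tumor 7 and 10.27 in tumor 8, against 9.36, 9.55, 10.72, 10.66, 10.36 and 10.32 in adrenal tumors 1 to 6. Tumor 7 was the lowest of the 8, within 0.41 of tumor 1. A second Myt1 probe set was detected in no tumor (4.65 ± 0.31, SD, n = 8), so the level of Myt1 rests on 1 probe set. By the probe sets that stand for the genes, Myt1l was the steadiest of the 8. It was 10.29 in tumor 7 and 9.95 in tumor 8, against 10.28, 10.13, 10.33, 10.52, 10.15 and 10.17 in adrenal tumors 1 to 6. The SD of 0.17 on this probe set lay below the lower quartile of all genes, 0.18. Other Myt1l probe sets with detected levels had SDs of 0.41, 0.23 and 0.47, against an upper quartile of 0.40. Of the 5 Myt1l probe sets, 1 was detected in no tumor. The other 4 had pairwise r of 0.16 to 0.58, and of 0.19 to 0.92 without tumor 7. One of these was highest in tumor 7 at 8.31 and lay below the detection limit in tumor 1.

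Zfhx3 was 11.70 in tumor 7 and 13.13 in tumor 8, against 12.89, 12.82, 13.22, 13.71, 13.57 and 13.34 in adrenal tumors 1 to 6. Tumor 8 lay inside the adrenal range and tumor 7 was 1.12 below the next tumor. All 6 Zfhx3 probe sets gave this order at its ends, with the lowest value in tumor 7 and the highest in tumor 4, and all were detected in all 8 tumors. Tumor 7 lay 1.54 to 2.17 below the mean of the other tumors over these probe sets. Their pairwise r was 0.76 to 0.98, and 0.50 to 0.93 without tumor 7.

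Its paralog Zfhx4, which has been studied in human glioblastoma, fell into a high and a low set of tumors. Its SD of 2.50 ranked 12th. The level was 8.40 in tumor 7 and 5.23 in tumor 8, against 9.12, 4.48, 10.34, 4.58, 9.66 and 9.79 in adrenal tumors 1 to 6. Tumors 7, 1, 3, 5 and 6 were above the detection limit, tumors 8, 2 and 4 were below it, and no tumor lay in the 3.18 between tumors 7 and 8. Both sites held tumors of either kind. A second probe set of Zfhx4 read 6.21 and 4.97 in tumors 7 and 8, against 5.91, 4.88, 8.89, 4.75, 7.46 and 8.12 in adrenal tumors 1 to 6. It kept tumors 8, 2 and 4 lowest and had an r of 0.90 with the first, but was detected in tumors 3, 5 and 6 only.

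**Figure D2:**
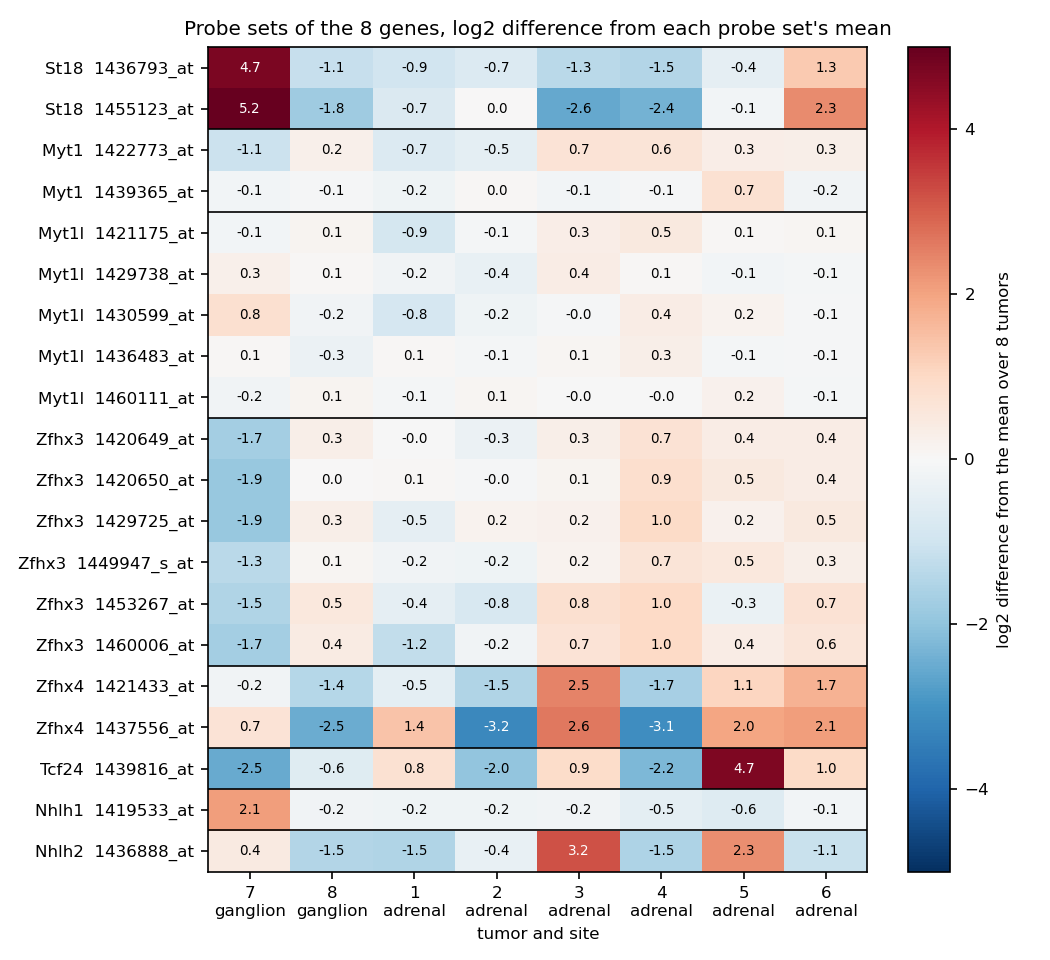
Log2 difference of each of the 20 probe sets (rows, grouped by gene) from its own mean over the 8 tumors (columns, ganglion tumors at the left, adrenal tumors at the right), with red above and blue below the mean. The 6 Zfhx3 rows share their lowest value in tumor 7, and both St18 rows their highest, whereas the 5 Myt1l rows do not all share a highest or a lowest tumor.

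Among the bHLH genes, Tcf24 was 5.34 in tumor 7 and 7.24 in tumor 8, against 8.60, 5.88, 8.76, 5.62, 12.53 and 8.82 in adrenal tumors 1 to 6. Tumor 5 stood 3.70 above the next tumor, and tumors 7, 2 and 4 were below the detection limit. The SD of 2.38 ranked 16th. Only 1 probe set reads Tcf24, so this has no second measurement. In tumor 5 mesenchymal markers were 1.86 and macrophage markers 0.72 below their mean over all 8 tumors. Nhlh1 was 7.31 in tumor 7 and 5.08 in tumor 8, against 5.01, 5.01, 5.05, 4.75, 4.60 and 5.09 in adrenal tumors 1 to 6. It was detected in tumor 7 alone. Without tumor 7 its SD was 0.19, against 0.86 with it, and its rank by SD was 10403 in place of 728. Nhlh2 was 7.00 in tumor 7 and 5.11 in tumor 8, against 5.05, 6.21, 9.75, 5.04, 8.90 and 5.46 in adrenal tumors 1 to 6. With an SD of 1.85, ranked 68th, it was detected in tumors 3, 5 and 7, although tumor 7 missed the stricter limit set at the 99th percentile of the receptors. Both paralogs were thus detected in tumor 7, and only Nhlh2 in tumors 3 and 5. In tumor 7 Nhlh1 lay just above the stricter limit of that array, 7.29. The r of the paralogs was 0.036 over the 8 tumors and −0.28 without tumor 7. The r without tumor 7 rests on Nhlh1 levels that were all below the detection limit. Each paralog was read by 1 probe set.

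To ask whether these genes differed between tumor sites, ganglion and adrenal tumors were compared with limma over 16254 genes. None of the 8 genes was called, and 3 of all genes were, which is 0.0185% of those tested. The 3 were all higher in ganglion tumors (Acta1, Tnnt3 and Clvs2, named after their values were seen), and Acta1 and Tnnt3 are muscle genes. Tnnt3 was detected in no tumor, at 6.23 in tumor 7 and 6.02 in tumor 8. Clvs2 averaged 6.25 in ganglion tumors, also under the detection limits of those arrays, 6.72 and 6.77. At an unadjusted p under 0.05 the test gave 761 genes. Zfhx3 averaged 12.42 ± 1.01 in ganglion tumors (SD, n = 2) and 13.26 ± 0.36 in adrenal tumors (SD, n = 6), a difference of −0.84 (SE 0.37, limma adjusted p = 0.90). For Nhlh1 the difference was 1.28 (SE 0.47, limma adjusted p = 0.90). Myt1 differed by −0.56 (SE 0.45), Myt1l by −0.14 (SE 0.16) and Nhlh2 by −0.68 (SE 1.34), with limma adjusted p-values of 0.92, 0.95 and 0.97. Two-sided exact permutation of the site labels doubles the smaller tail, so with 28 splits it could not give a p under 0.05. Its p was 0.14 for Nhlh1, 0.21 for Zfhx3, 0.29 for Myt1, 0.36 for Myt1l and 0.93 for Nhlh2. For the genes chosen by their SD the differences are a description, and they were 2.26 for St18, −1.18 for Zfhx4 and −2.08 for Tcf24. The groups overlapped for each of the 8 genes, whereas they did not for 4.42% of all genes.

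The site means hide that tumors 7 and 8 departed from the adrenal tumors in different ways. Relative to the adrenal mean, St18 was 5.72 higher in tumor 7 and 1.20 lower in tumor 8, Nhlh1 2.39 higher and 0.16 higher, and Zfhx3 1.56 lower and 0.13 lower. With tumor 8 left out, and tumor 7 taken to vary like the adrenal tumors, Nhlh1 (adjusted p = 0.0012) and Zfhx3 (adjusted p = 0.038) were called in the limma fit, while Myt1 (−1.22, adjusted p = 0.25), Myt1l (0.023, adjusted p = 0.98) and Nhlh2 (0.27, adjusted p = 0.97) were not. That fit called 952 of 16210 genes, or 5.87%, and it compares 1 tumor with the others, not a site. In the alternatives that kept both ganglion tumors, the limma adjusted p was at least 0.86 for Nhlh1 and at least 0.83 for Zfhx3. With the receptor-based filter Nhlh1 was not tested, since it was detected in 1 tumor only. Of the 8 genes, 5 were highest or lowest in tumor 7, among them 3 of the 5 not chosen by SD, against 43.7% of all genes, so a place at the end of the range in tumor 7 was common. A range of at least 2 over the tumors was seen in 6 of the 8 genes and in 3 of the 5 not chosen by SD, against 8.61% of all genes, from which nothing is read because the selection used the spread.

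Likeness between the 8 genes over the tumors was described by Pearson r, with 8 tumors from the same arrays behind each of the 28 pairs. The highest was that of Myt1 with Zfhx3 (0.87, and 0.80 without tumor 7), both lowest in tumor 7 and higher in tumors 3 to 6 than in tumors 1 and 2. Zfhx4 and Tcf24 had an r of 0.66, and of 0.79 without tumor 7, and tumors 2 and 4 were low in both. St18 and Nhlh1 had an r of 0.80 that was 0.15 without tumor 7. The lowest r was that of Zfhx3 with Nhlh1 (−0.92, and −0.69 without tumor 7).

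For the genes chosen by their SD, the 5 most alike genes were taken from 2492 genes with an SD of at least 0.5. The first for St18 was Gal, which encodes the neuropeptide galanin, with an r of 0.99, and of 0.98 without tumor 7. Gal was 13.46 in tumor 7 and 7.82 in tumor 8, against 8.33, 8.49, 7.26, 7.35, 9.00 and 10.75 in adrenal tumors 1 to 6. Its 2 highest and 2 lowest tumors were those of St18. Chchd10, a mitochondrial protein gene (0.97, and 0.93 without tumor 7), Suclg2, a subunit of succinyl-CoA synthetase (0.95, and 0.91), Cdhr1 (0.94, and 0.83) and Mcrip2 (0.94, and 0.84) followed. Next to Zfhx4 stood Eya4, a transcriptional coactivator of the eyes absent family (0.88, and 0.91 without tumor 2, the farthest from the Zfhx4 median). Slc26a4 (0.87, and 0.83), the potassium channel gene Kcna5 (0.83, and 0.83), Pclo, a presynaptic scaffold (0.82, and 0.75), and Spint2 (0.82, and 0.75) came after it. Next to Tcf24 stood Chgb, the secretory granule protein chromogranin B (0.93, and 0.81 without tumor 5), Ppp1r17 (0.87, and 0.84), Gpat2 (0.87, and 0.63), the meiotic cohesin gene Rec8 (0.87, and 0.66) and A330023F24Rik (0.86, and 0.61). Chgb was 13.72 in tumor 5, where Tcf24 was highest, against 11.26 to 12.51 elsewhere. Cdhr1, Kcna5, Rec8 and A330023F24Rik were detected in 2 tumors each and Gpat2 in 1. The r of these genes thus rests mostly on levels below the detection limit.

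**Figure D3:**
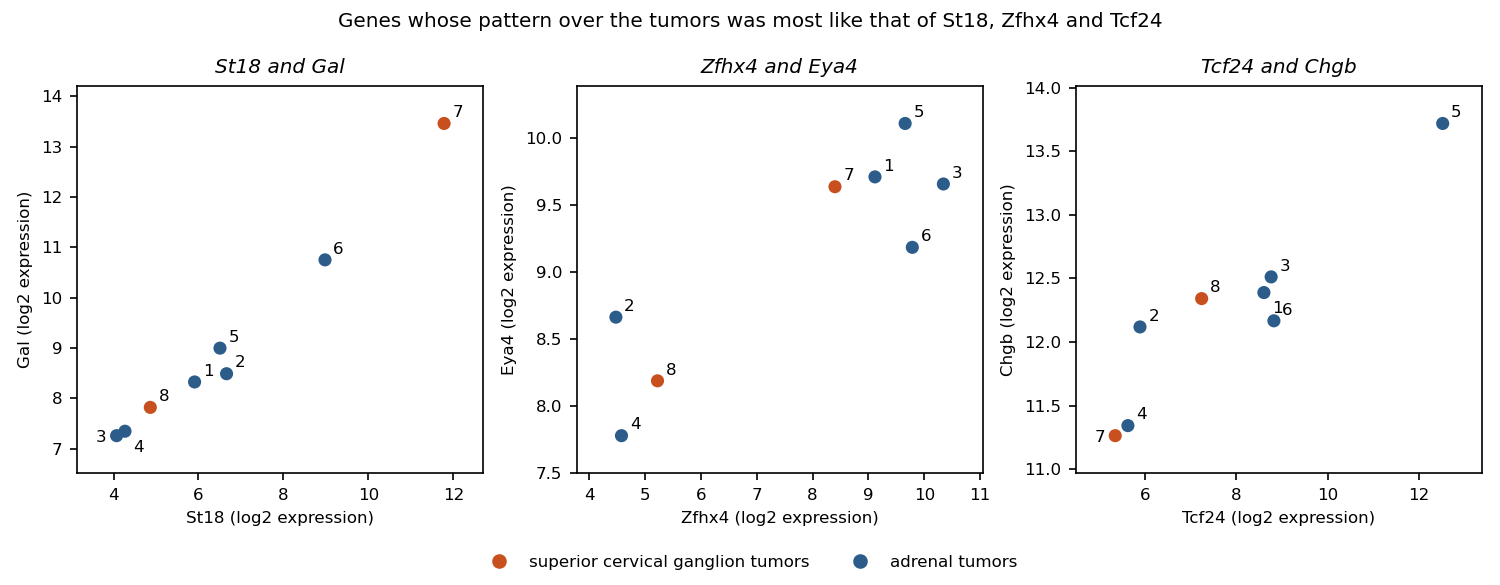
Log2 expression of St18 against Gal, Zfhx4 against Eya4 and Tcf24 against Chgb, each point 1 of the 8 tumors with its number, ganglion tumors in orange and adrenal tumors in blue. St18 and Gal lie close to a line with and without tumor 7 (r 0.99 and 0.98), Zfhx4 falls into a high and a low set of tumors, and Tcf24 and Chgb are both highest in tumor 5.

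Partner genes of the same pathways were read from lists. Of the E proteins, LMO proteins and LDB adaptors, through which bHLH factors act, all 9 were detected in every tumor, among them Tcf4 and Tcf12, which encode E proteins, and Lmo1. None of the 9 was called, with a median ganglion minus adrenal difference of −0.13, against −0.027 over all genes tested. In a list of 8 genes, made of corepressors of the MYT1 family and Rest, 7 were detected throughout, among them Hdac2, Kdm1a and Sin3b. Rest, the repressor of neuronal genes, was detected in 4 tumors. None of the 8 was called, and their median difference was 0.082. Of the HES and HEY repressors, most of them Notch targets, Hes6 and Hey1 were detected in every tumor, Hes1 in 6, Heyl in 5, Hey2 in 2 and Hes5 in none, with a median difference of −0.16 and no call. The proneural and neuronal bHLH and INSM factors had 11 of 13 genes measured, of which 4 were detected throughout, 2 in some and 5 in none, with no call and a median difference of 0.097. Neurod1, a bHLH factor of neuronal differentiation, was 11.99 in tumor 7, against 9.17 to 10.37 in the other tumors. Neurod6 was 10.42 in tumor 7 and 4.58 in tumor 8, against 6.48, 4.20, 7.48, 5.42, 4.31 and 7.73 in adrenal tumors 1 to 6. It was detected in tumors 3, 6 and 7, and Atoh8 in 3 tumors. Insm2 was 7.46 in tumor 7, against 9.70 to 12.01 elsewhere. Its paralog Insm1 went the other way, at 12.28 in tumor 7, against 10.91 to 11.80 elsewhere. Neurod2 was also highest in tumor 7, at 9.74, against 7.21 to 7.58 elsewhere. The other zinc finger homeobox genes were detected throughout in 7 of 7 measured, with no call and a median difference of −0.16. Of 5 proteins named as partners of ZFHX3, Pias3 was detected throughout, Myb in 7 tumors, Runx1 in 5, Runx3 in 3 and Klf5 in 2, with no call and a median difference of 0.018.

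St18 and Tcf24 lie on chromosome 1 with 8 measured genes between them, and Zfhx4 and Nhlh2 on chromosome 3 with 466 between them. The genes next to them served to see whether whole stretches moved with the members. For St18 the median of 20 neighbours, 10 on each side, lay between −0.13 and 0.17 of the other tumors in every tumor, while St18 itself was 5.89 above them in tumor 7. The 20 neighbours of Tcf24 stayed between −0.092 and 0.26, while Tcf24 was 5.34 above the other tumors in tumor 5. Zfhx4 had 11 neighbours, with medians of −0.78 in tumor 7 and up to 0.24 elsewhere. In tumor 7 the median over all of chromosome 3 was −0.31, and Zfhx4 was 0.80 above the other tumors there. The neighbours of Nhlh2 lay between −0.25 and 0.15, those of Nhlh1 between −0.13 and 0.33, those of Zfhx3 between −0.066 and 0.047, the 12 of Myt1 between −0.22 and 0.30 and those of Myt1l between −0.042 and 0.12. Beside Myt1, which was lowest in tumor 7, Oprl1 (6.27 in tumor 7, against 8.98 to 9.65 elsewhere) and Pcmtd2 (9.50, against 9.93 to 10.78) were also lowest there, and Rgs19 was highest there at 11.15. These were named after their values were seen. The large values of St18, Tcf24 and Nhlh2 were thus not shared by the genes beside them.

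**Figure D4:**
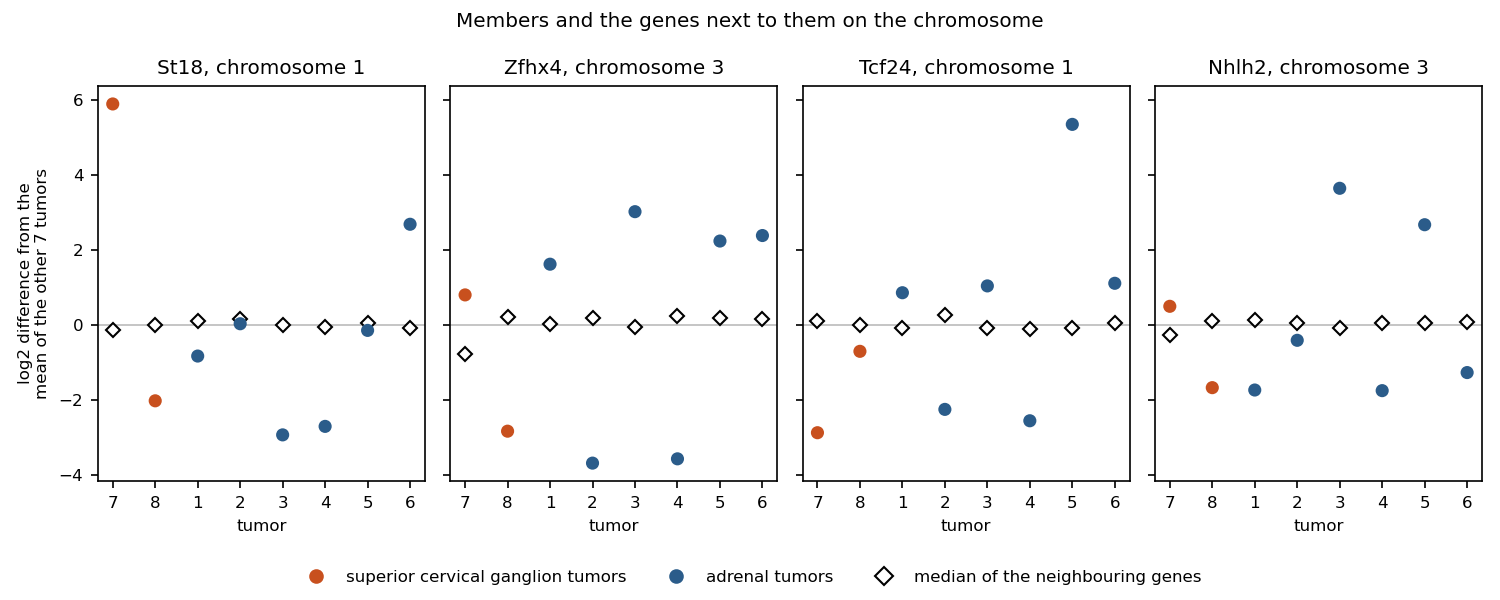
Log2 difference of St18, Zfhx4, Tcf24 and Nhlh2 (filled circles) and of the median of their neighbouring genes on the chromosome (open diamonds) from the mean of the other 7 tumors, in ganglion tumors 7 and 8 and adrenal tumors 1 to 6. The circles reach 5.89 for St18 in tumor 7 and 5.34 for Tcf24 in tumor 5, while the diamonds stay between −0.78 and 0.26.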

How the data were processed

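The 8 tumors were grouped by the site in the labels. The authors deposited log2 values for 45101 probe sets. RMA and Partek 6.6 are named in the submitters' processing notes but gcRMA in the Methods, and which was applied is unsettled. Both include background correction and normalization between arrays, so nothing further was normalized. Genes were named from the platform annotation, in which 34958 probe sets had 1 gene, 932 several and 9211 none, and 34754 matched the RefSeq table of GRCm38.p6. That table also gave gene order. The fit took genes above log2 5 in 2 or more tumors. It was made with limma 3.58.1 in R 4.3.3 (lmFit, eBayes, Benjamini-Hochberg threshold 0.05). A check on simulated data gave the ganglion tumors the adrenal spread, so it does not cover ganglion tumors that differ more. Exact permutation, correlations and plots used Python 3.11.15, numpy 2.4.6, pandas 2.3.3, scipy 1.17.1 and matplotlib 3.10.9. The number of arrays limits the precision. Signal over background is given by the receptor-based limit, and 43.1% to 51.7% of probe sets per tumor were detected. The 8 genes, the lists and the detection limit were chosen with earlier results of these data known. Named genes were all members, partners detected in some tumors or leading their list by mean level, the 5 most alike genes and up to 4 markers a list. Alternatives covered normalization, filter, probe set, test, detection limit and tumors left out. Protein sequences and the RankProd comparison with normal adrenals of the Methods were not analysed here.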

Additional observations from a re-analysis of the deposited data

Results flagged for a closer look

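A gap of 1 tumor from all others that was large for the range of the group was looked for in the 8 tumors together and in the 6 adrenal tumors, for each of the 8 genes. Of these 16 cases 2 stood out, both in tumor 7 among all 8 tumors. Chance gives about 1 in 20, but such a gap was present over the 8 tumors in 15.1% of all genes tested, and in 7.52% it was a gap of tumor 7. The cases include St18, Zfhx4 and Tcf24, which were selected on their SD over these same tumors, so the count is a description only. Neither gene that stood out was among them. For Nhlh1 the gap of tumor 7 above the next tumor was 0.821 of the whole range, and for Zfhx3 the gap of tumor 7 below the next tumor was 0.558 of it. Noradrenergic markers were lowest in the same tumor, and their part in these gaps was not tested. Among the adrenal tumors alone no gene stood out.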

How the results depend on the processing

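The count of 3 genes called between sites was 1 with the receptor-based filter, 6 with the mean of the probe sets of a gene and 9 without tumors 6 and 7. Leaving out 1 tumor at a time gave 2 to 952 genes, with 8 without tumor 7 and 952 without tumor 8. The difference of Myt1 became 0.10 without tumor 7 and 0.14 without tumors 6 and 7, that of Myt1l 0.089 with the mean of the probe sets and 0.023 without tumor 8, and that of Nhlh2 0.27 without tumor 8. Only without tumor 8, which leaves 1 ganglion tumor, did Zfhx3 (−1.56) and Nhlh1 (2.39) change side of the threshold. The adrenal Nhlh1 levels were all below the detection limit. Leave-one-out ranges were −1.22 to 0.10 for Myt1, −0.31 to 0.023 for Myt1l, −1.63 to 0.27 for Nhlh2, 0.16 to 2.39 for Nhlh1 and −1.56 to −0.13 for Zfhx3. St18 was −1.20 without tumor 7, 5.72 without tumor 8 and −0.62 without tumors 6 and 7. Zfhx4 ran from −2.77 without tumor 7 to 0.41 without tumor 8, and Tcf24 from −3.03 without tumor 8 to −1.13 without tumor 7, with −1.25 without tumor 5. For the 5 genes not chosen by SD, 77 of 84 values under the alternatives kept their direction and side of the threshold. Part of that count was fixed in advance. The other filters on low values, the limma fit with a trend and robust prior and the exact permutation reuse the same difference, so its direction could not change. The permutation could not pass the threshold either. With log2 5 as the detection limit, St18 was detected in 5, Nhlh1 in 6, and Tcf24 and Nhlh2 in 8 tumors. Mean levels over all probe sets were 7.33 for Myt1, 8.03 for Myt1l and 11.00 for Zfhx3, since dimmer probe sets then count. No paired analysis was possible because the labels do not name the mouse of each tumor. Values near the receptor-based limit have little signal over background, and 2 ganglion tumors that differ this much limit the site comparison.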
